A study of Mus musculus with 6 samples.

Results

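Ccnj and Fubp1, which are recalled from the literature as miR-16 targets that this study named, were followed on mouse expression arrays together with the Fubp1 paralogues Fubp3 and Khsrp and the Myc family genes Myc, Mycn, Mycl1 and Max. All probes that carry one of these 8 gene names in the scanner files were taken, which gave 14 of the 41174 probes and 8 of the 27670 gene names on the array. The cells were C4HD, a hormone-dependent ductal mammary tumour that arose in female BALB/c mice given the progestin medroxyprogesterone acetate and that is passaged by transplantation into mice treated with the same progestin. Cultures were made from the epithelial fraction of such tumours, which is enriched by sedimentation and can retain other cells. One group of 3 received pre-miR-16, a synthetic precursor of miR-16, and the other group of 3 received pre-miR-Control, a precursor with no known mammalian microRNA product. Both groups received 30 nM with the transfection reagent siPORT NeoFX, and RNA was taken after 48 h. There was 1 single-colour array per replicate. The labels number the replicates without saying which tumour or culture each came from, so p-values measure the spread between these arrays.

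A microRNA guides Argonaute proteins to messenger RNAs, mostly through its seed, the short stretch near its 5′ end, and pairing with sites in 3′ untranslated regions lowers the stability or translation of the message. FUBP1 is a KH-domain protein that binds single-stranded DNA at the far upstream element of the Myc gene and stimulates its transcription. FUBP3 and KHSRP (also called FUBP2) share its KH domains, and KHSRP is also known for the decay of messages with AU-rich elements and for microRNA maturation. Ccnj encodes cyclin J, a little-studied member of the cyclin family. MYC, N-MYC and L-MYC bind DNA at E-box sequences as heterodimers with MAX.

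The mature sequences of miR-16 and of the related mouse microRNAs miR-15a, miR-15b, miR-195a, miR-497a and miR-322 are shown because all carry the same seed, so a seed match to one is a seed match to all. Sequences and positions are from RefSeq, build GRCm38.p6, written 5′ to 3′ with bases 2 to 8, the seed, in capitals.
mmu-miR-16-5p: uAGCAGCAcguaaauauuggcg
mmu-miR-15a-5p: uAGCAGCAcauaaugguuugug
mmu-miR-15b-5p: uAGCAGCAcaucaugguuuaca
mmu-miR-195a-5p: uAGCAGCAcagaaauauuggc
mmu-miR-497a-5p: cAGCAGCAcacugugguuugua
mmu-miR-322-5p: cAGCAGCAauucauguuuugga
Mature miR-16 is encoded at chr14:61631936-61631957 on the minus strand, next to miR-15a, and again at chr3:69009918-69009939 on the plus strand, next to miR-15b. In all, 10 mature mouse microRNA names had this seed, AGCAGCA. Its 6-base match, GCTGCT, is complementary to bases 2 to 7. Searched on the probe strand and its reverse complement, it occurred in 0 of the 14 member probes and in 2.94% of all probes. The probes are short windows of the transcripts, and the untranslated regions where sites lie were not used here.

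Levels are given as log2 of the processed signal relative to the 75th percentile of that array, and a change is the mean of the pre-miR-16 arrays minus the mean of the pre-miR-Control arrays, with its standard error (SE). A probe was kept if the scanner software marked it well above background on each of the 3 arrays of a group. It was called if the adjusted p-value of limma's moderated test (Benjamini-Hochberg over all kept probes) was under 0.05. The 75th percentile of the processed signal ranged from 626 to 911 units, the share of spots well above background ranged from 57.2% to 64%, and none (0) was saturated. Of the 14 member probes 12 were kept, from 7 of the 8 genes, and 6 fell, 0 rose and 6 were not called. Over all 23828 kept probes 46.5% were called (31.3% fell and 15.2% rose), so a call alone was common on these arrays. In 7 of the 12 kept member probes the groups did not overlap, against 59.7% of all kept probes. The median change was -0.54 over the 12 member probes and -0.19 over all kept probes. The spike-in probes lay 3.803 to 3.951 above the 75th percentile in the controls and 3.278 to 3.636 above it with pre-miR-16. Scaling on them, a choice made with earlier results of these data known, moved every change up by 0.383, to a median of 0.19 over all probes. Under it, 5.9% of all probes fell and 21.7% rose, and 2 member probes fell.

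Markers of other cell types differed greatly between the groups. Of 15 fibroblast markers 14 rose, with a median change of 3.81, and their summed level (in units of the array's 75th percentile) was 397 to 466 in the controls and 633 to 788 with pre-miR-16. The exception, Dcn, was the brightest of the 15 and changed by -0.07 ± 0.13 (adjusted p = 0.685). At 8.79, 8.56 and 8.68 in the controls, it made up most of the summed level there, so that sum understates the rise of the others. Col1a1, the collagen I alpha chain, changed by 3.94 ± 0.13 (SE, adjusted p = 1.24e-05), and Pdgfrb, a receptor of stromal cells, by 4.21 ± 0.15 (adjusted p = 1.29e-05). Of 13 measured macrophage markers 11 rose, with a median of 3.44 when the 2 markers not well above background in the controls are set at their bounds. Their summed level was 18.4 to 24.1 in the controls and 215 to 263 with pre-miR-16. Csf1r and Aif1, well above background on all 6 arrays, were not called. They changed by -0.51 ± 0.26 (adjusted p = 0.146) and 0.08 ± 0.24 (adjusted p = 0.8). Ptprc (CD45) was not well above background in the 3 controls and was at least 12.4-fold higher with pre-miR-16, a bound set against the lowest signal well above background, and Adgre1, a macrophage surface receptor, was well above background on 2 of the 3 controls. Of 14 luminal epithelial markers 9 fell and 0 rose, with a median of -0.56, and the summed level was 1197 to 1339 in the controls and 715 to 891 with pre-miR-16. Krt8, a luminal keratin, fell by 1.19 ± 0.11 (adjusted p = 0.00048) and Epcam, an epithelial adhesion molecule, by 0.76 ± 0.11 (adjusted p = 0.00295), and both stayed well above background on all 6 arrays. Under scaling on spike-ins 2 of the 14 luminal markers fell, with a median of -0.17. In such bulk samples fewer cells of a type and less RNA per cell cannot be told apart, and the part of this shift in the changes of Ccnj, Fubp1 and their relatives was not tested. Under scaling on the 75th percentile the changes of the luminal markers ran from -1.19 to -0.02. The middle and 5′ Fubp1 probes then changed by -0.58 and -0.76, and the paralogue Fubp3 by -0.60. The 3′ Fubp1 probe changed by -1.60 and Ccnj by -1.98. A range over 14 chosen markers cannot show what part the shift had in any of these changes.

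Ccnj had the largest fall among the members. Its 1 probe (A_51_P418016, chr19:40742196-40742255, build mm7) gave processed signals of 102, 103 and 95.8 units in pre-miR-Control replicates 1 to 3 and of 27.5, 29.6 and 35.6 units in pre-miR-16 replicates 1 to 3. The corresponding levels were -2.61, -2.66 and -2.86 in the controls and -4.76, -4.64 and -4.68 with pre-miR-16. All 3 pre-miR-16 arrays lay below all 3 controls, and the distance between the groups far exceeded the spread within either, which was 0.13 (SD) in the controls and 0.06 with pre-miR-16. Ccnj fell by 1.98 ± 0.10 (SE, n = 3 per group), 3.94-fold, with limma's adjusted p = 4.42e-05. Only 158 of the kept probes, 0.663%, fell as far or further. The fall was called under every alternative fit across all probes. Its size was smaller after normexp background correction with an offset of 50 units, at -1.07 with the 75th percentile and -0.97 with quantile normalization, and it was -0.99 in the deposited series matrix. Within slide 1 Ccnj changed by -2.14 and within slide 2 by -1.87. The 3 established genes whose levels ran most like those of Ccnj over the 6 arrays, after each was centred on its own mean, were Cpsf4l, Lrrc74b and Enkur, with root mean square differences of 0.069, 0.088 and 0.113 among 13091 candidates.

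**Figure D1:**
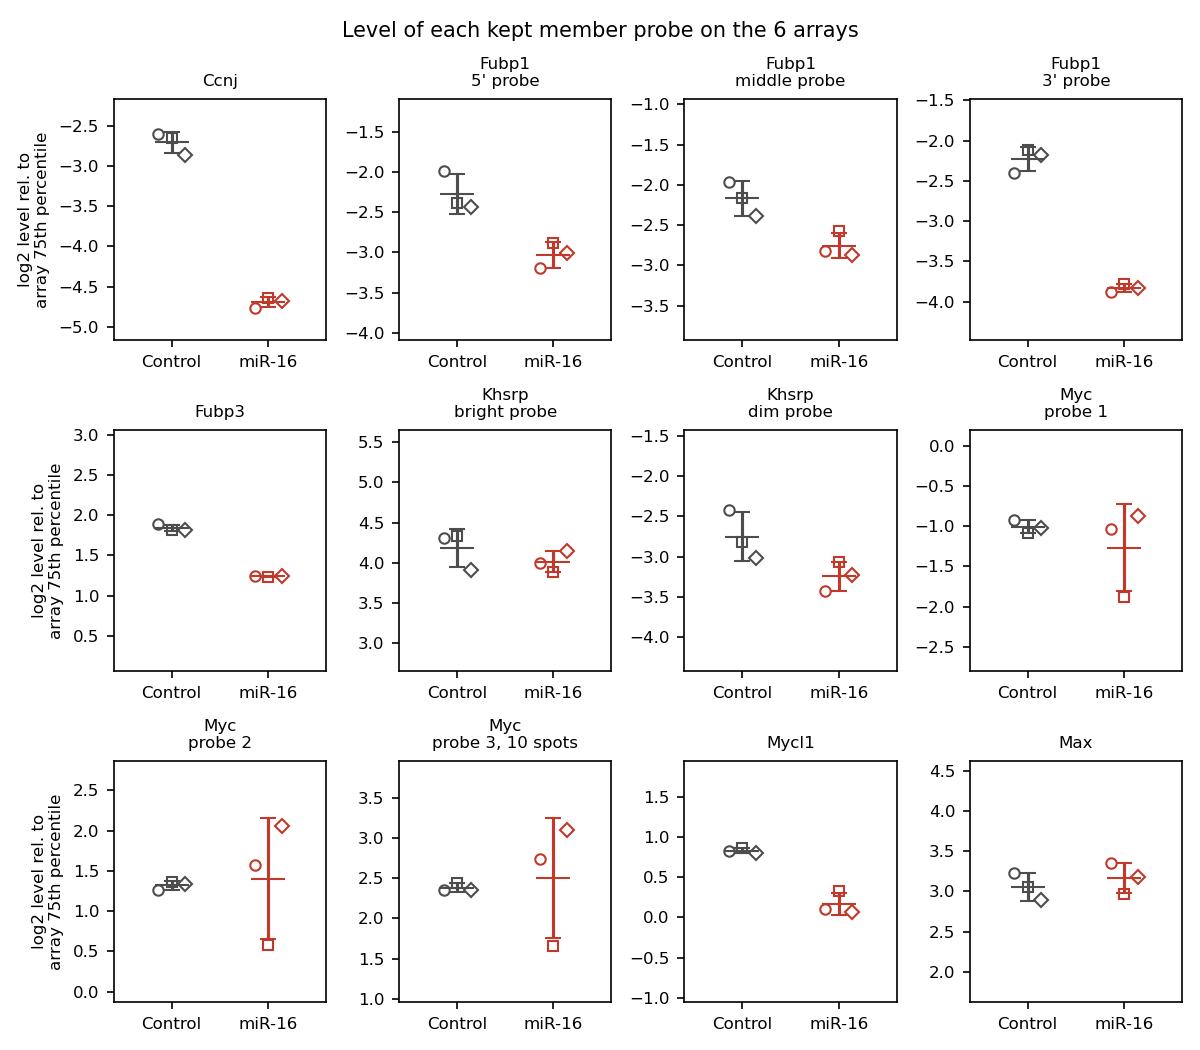
Level of each of the 12 kept member probes (log2 relative to the array's 75th percentile, each panel spanning 3 units) in the pre-miR-Control (grey) and pre-miR-16 (red) cultures. Circles, squares and diamonds are replicates 1, 2 and 3, bars are the mean ± SD (n = 3), and the groups separate most widely for Ccnj and the 3′ probe of Fubp1.

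Fubp1 was represented by 3 probes along chromosome 3 (build mm7), and all 3 fell, by unequal amounts. The 5′ probe (A_52_P513842, chr3:152123351-152123410) lies 10227 bases before the middle probe (A_51_P380581, chr3:152133578-152133637), and the 3′ probe (A_52_P438578, chr3:152134932-152134991) lies a further 1354 bases on. Annotation of that build was not used here, so exons and untranslated regions are not assigned. The array's annotation gives the 5′ and 3′ probes the same transcript record and the middle probe a different one. Whether all 3 read the same transcripts was not tested. The 5′ probe of Fubp1 and the dim probe of Khsrp are printed as examples of the 60-base windows on which these relatives were read, in lower case with no part marked, and each is free of stop codons in 1 of its 3 forward frames.
Fubp1 5′ probe: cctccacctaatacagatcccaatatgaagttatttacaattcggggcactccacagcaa
Khsrp dim probe: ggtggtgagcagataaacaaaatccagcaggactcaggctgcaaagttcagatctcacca

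The middle probe of Fubp1, the brightest of the 3, gave levels of -1.96, -2.16 and -2.39 in the controls and -2.82, -2.58 and -2.87 with pre-miR-16. The groups did not overlap, but the distance between the nearest arrays was small. The change was -0.58 ± 0.15 (SE, n = 3 per group, adjusted p = 0.019), a 1.5-fold fall. This call was lost without pre-miR-Control replicate 1 (-0.48, adjusted p = 0.0508), without pre-miR-Control replicate 2 (-0.58, adjusted p = 0.0636), with pre-miR-16 replicate 1 left out (-0.55, adjusted p = 0.0632) and with pre-miR-16 replicate 3 left out (-0.53, adjusted p = 0.0587). It was also lost under scaling on spike-ins, at -0.20 (adjusted p = 0.449), and the change was -0.85 within slide 1 and -0.30 within slide 2. The genes whose levels ran most like this probe were Iqcd, Mbd4 and Klhl36, with root mean square differences of 0.034, 0.035 and 0.046.

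The 5′ probe of Fubp1 was at -1.99, -2.39 and -2.44 in the controls and at -3.20, -2.88 and -3.01 with pre-miR-16. All pre-miR-16 arrays again lay below all controls, with a change of -0.76 ± 0.16 (adjusted p = 0.01). The call was lost under scaling on spike-ins, at -0.37 (adjusted p = 0.2), with slide as a fixed block at -0.78 (adjusted p = 0.0505), and at a threshold of 0.01.

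The 3′ probe of Fubp1 fell further than both others. Its processed signals were 119, 149 and 154 units in the controls and 50.4, 53.5 and 64 units with pre-miR-16, which gave levels of -2.40, -2.12 and -2.18 against -3.88, -3.78 and -3.83. The pre-miR-16 arrays clustered tightly, with an SD of 0.05, and stood clear of the controls. The change was -1.60 ± 0.11, a 3.03-fold fall (adjusted p = 0.000117), and 1.5% of all kept probes fell as far or further. It was called under every alternative fit across all probes, with changes from -1.68 to -0.96, and at -1.21 under scaling on spike-ins (adjusted p = 0.00121).

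The difference between Fubp1 probes within an array does not depend on how arrays are scaled. The 3′ probe minus the middle probe was -0.43, 0.04 and 0.21 in the controls and -1.06, -1.20 and -0.96 with pre-miR-16, a change of -1.01 ± 0.21. The 3′ probe minus the 5′ probe changed by -0.84 ± 0.23, likewise with no overlap, while the middle probe minus the 5′ probe changed by 0.17 ± 0.09 and its groups overlapped. An exact two-sided permutation test with 3 against 3 arrays cannot give a p below 0.1. This exact test gave p = 0.1 for both differences that involve the 3′ probe and p = 0.2 for the third, and after Benjamini-Hochberg adjustment over the 12 differences examined here the values were 0.24, 0.24 and 0.3. The difference between the 3′ and the middle probe shrank to -0.59 under normexp and to -0.57 in the series matrix, and it was -0.63 within slide 1 and -1.33 within slide 2. The changes of the 3 Fubp1 probes thus spanned 1.01, compared with a median span of 0.40 over the 1209 genes with 3 kept probes, of which 10.8% spanned as much.

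**Figure D2:**
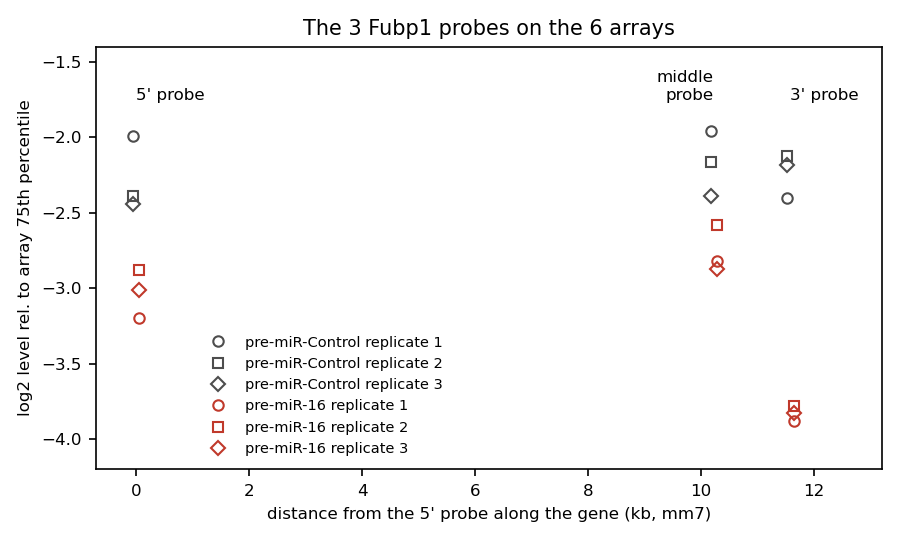
Level of the 3 Fubp1 probes (log2 relative to the array's 75th percentile) against their distance from the 5′ probe along the gene (kb), in the 3 pre-miR-Control (grey) and 3 pre-miR-16 (red) arrays. The groups lie apart at all 3 probes, and at the 3′ probe the pre-miR-16 arrays sit between -3.88 and -3.78 while the controls sit between -2.40 and -2.12.

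Fubp3, whose protein also binds far upstream elements, fell as well. Its 1 probe (A_51_P268297, chr2:31624127-31624186, mm7) was at 1.89, 1.82 and 1.82 in the controls and at 1.24, 1.23 and 1.25 with pre-miR-16. The replicates of each group nearly coincided and the groups did not overlap. The change was -0.60 ± 0.08 (adjusted p = 0.00222), a 1.52-fold fall, and it kept its call without any single array, but under scaling on spike-ins it was -0.22 (adjusted p = 0.388). The middle Fubp1 probe minus Fubp3 within arrays differed between the groups by 0.02 ± 0.14, with overlapping groups (exact permutation p = 0.9). Over the mean of each gene's probes that difference was -0.38, since the 3′ probe then counts towards Fubp1. The middle probe fell least of the Fubp1 probes, with a change of -0.58 against -0.76 and -1.6 at the others. Its mean level in the controls, -2.17, was only slightly above theirs of -2.27 and -2.23. Differences of the middle probe from Fubp3, Khsrp, Myc, Max and Mycl1 therefore rest on the least-falling Fubp1 probe.

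Khsrp was not called at either of its probes. The bright probe (A_51_P281700, chr17:55232685-55232744, mm7) was at 4.31, 4.33 and 3.91 in the controls and at 4.0, 3.89 and 4.15 with pre-miR-16. The groups overlapped, and the change of -0.17 ± 0.15 (adjusted p = 0.385) turned to 0.22 under scaling on spike-ins. The dim probe (A_52_P123252, chr17:55237979-55238038, mm7) was at -2.42, -2.82 and -3.02 in the controls and at -3.43, -3.07 and -3.23 with pre-miR-16. Here the groups did not overlap, by a narrow margin, and the change of -0.49 ± 0.18 (adjusted p = 0.0666) missed the threshold and passed it under 8 of the 22 alternatives that gave a p-value, among them quantile normalization (-0.54, adjusted p = 0.0287) and the fit without pre-miR-Control replicate 3 (-0.62, adjusted p = 0.0494). The changes of the Khsrp probes lay 0.32 apart, and 33.1% of the 3968 genes with 2 kept probes had changes as far apart. The middle Fubp1 probe minus the bright Khsrp probe changed by -0.42 ± 0.17 (exact permutation p = 0.2), and Fubp3 minus that probe by -0.43 ± 0.15, with no overlap (exact permutation p = 0.1).

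Myc, the gene that FUBP1 is best known to regulate, varied widely among the pre-miR-16 cultures and was not called. Its brightest probe (A_51_P102096, chr15:62064256-62064316, mm7) is spotted 10 times on each array and averaged 3195, 3529 and 3565 units in the controls and 4964, 2324 and 7817 units in pre-miR-16 replicates 1 to 3. The levels were 2.35, 2.44 and 2.35 in the controls and 2.74, 1.66 and 3.1 with pre-miR-16. Replicates 1 and 3 thus lay above every control and replicate 2 lay below every control. This pattern was not particular to Myc. In pre-miR-16 replicates 1 to 3, Krt7 was at 8.01, 6.76 and 7.91 and Exosc8 at 2.92, 1.61 and 2.92, with replicate 2 again below every control. Other genes, such as Puf60 at 3.46, 3.4 and 3.5, did not show it. The spots of an array had an SD of 0.028 to 0.053, far less than the SD of 0.75 among the pre-miR-16 arrays, which itself exceeded the 0.05 among the controls. The change was 0.12 ± 0.35 (adjusted p = 0.805). Leaving out pre-miR-16 replicate 2 gave 0.54 at this probe (adjusted p = 0.0206), which passed the threshold. Leaving out pre-miR-16 replicate 3 gave -0.18 (adjusted p = 0.672).

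**Figure D3:**
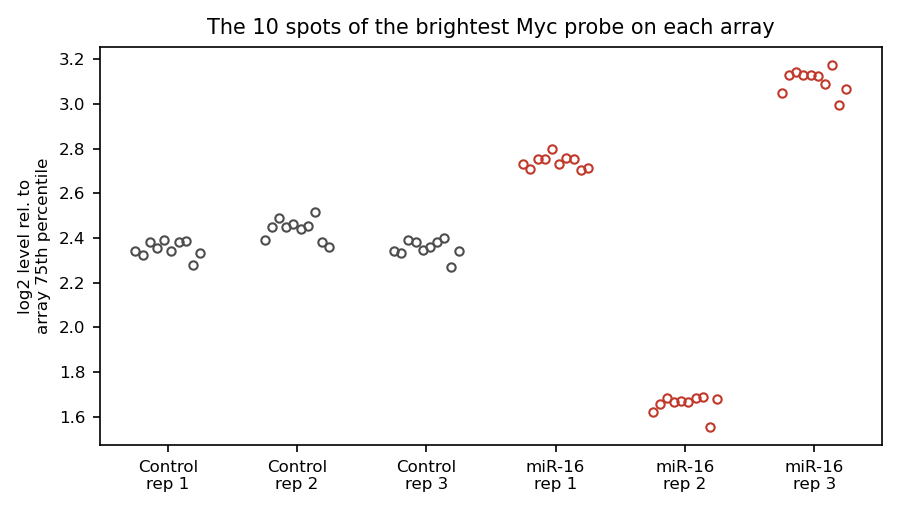
Each of the 10 spots of the brightest Myc probe on the 6 arrays (log2 level relative to the array's 75th percentile), pre-miR-Control in grey and pre-miR-16 in red. Spots of an array cluster tightly, the 3 controls lie together, and pre-miR-16 replicates 1 and 3 lie above and replicate 2 below them.

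The other Myc probes were likewise lowest in pre-miR-16 replicate 2. The second (A_52_P108346, chr15:62064157-62064216) was at 1.26, 1.36 and 1.34 in the controls and at 1.57, 0.58 and 2.05 with pre-miR-16, and changed by 0.08 ± 0.35 (adjusted p = 0.875). The third (A_52_P278549, chr15:62063665-62063724) was at -0.92, -1.08 and -1.02 against -1.04, -1.88 and -0.88, a change of -0.26 ± 0.26 (adjusted p = 0.449) that was 0.13 under scaling on spike-ins. Without pre-miR-16 replicate 2 the second probe changed by 0.49 (adjusted p = 0.0513) and the third by 0.05 (adjusted p = 0.704), and neither was called. On each of the 3 Myc probes pre-miR-16 replicate 3 was the highest of the 6 arrays. The middle Fubp1 probe minus Myc changed by -0.70 ± 0.54 (exact permutation p = 0.4), and it was 0.44 within slide 2, which holds pre-miR-16 replicate 2.

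Of the other Myc family genes, Mycl1 fell, Max was not called and Mycn could not be tested. Mycl1, which encodes L-MYC (A_52_P93284, chr4:122446951-122447010, mm7), was at 0.83, 0.86 and 0.80 in the controls and at 0.11, 0.33 and 0.07 with pre-miR-16. All pre-miR-16 arrays lay below all controls, a change of -0.66 ± 0.11 (adjusted p = 0.00373), and under scaling on spike-ins the value was -0.28 (adjusted p = 0.269). Max, the shared partner (A_51_P188211, chr12:74895981-74896040, mm7), was at 3.23, 3.05 and 2.89 in the controls and at 3.35, 2.97 and 3.18 with pre-miR-16, which overlap, and changed by 0.11 ± 0.14 (adjusted p = 0.542). The middle Fubp1 probe minus Max changed by -0.70 ± 0.19 with no overlap (exact permutation p = 0.1), and minus Mycl1 by 0.08 ± 0.12 (exact permutation p = 0.7). Mycn, which encodes N-MYC, had 2 probes, and neither was kept. The first (A_52_P536494, chr12:12999078-12999137, mm7) was well above background on 0 of the 6 arrays, and the second (A_51_P497332, chr12:13000197-13000256, mm7) on pre-miR-Control replicate 1 only, where its processed signal was 22.3 units against 3.14 to 9.66 units on the other 5 arrays.

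**Figure D4:**
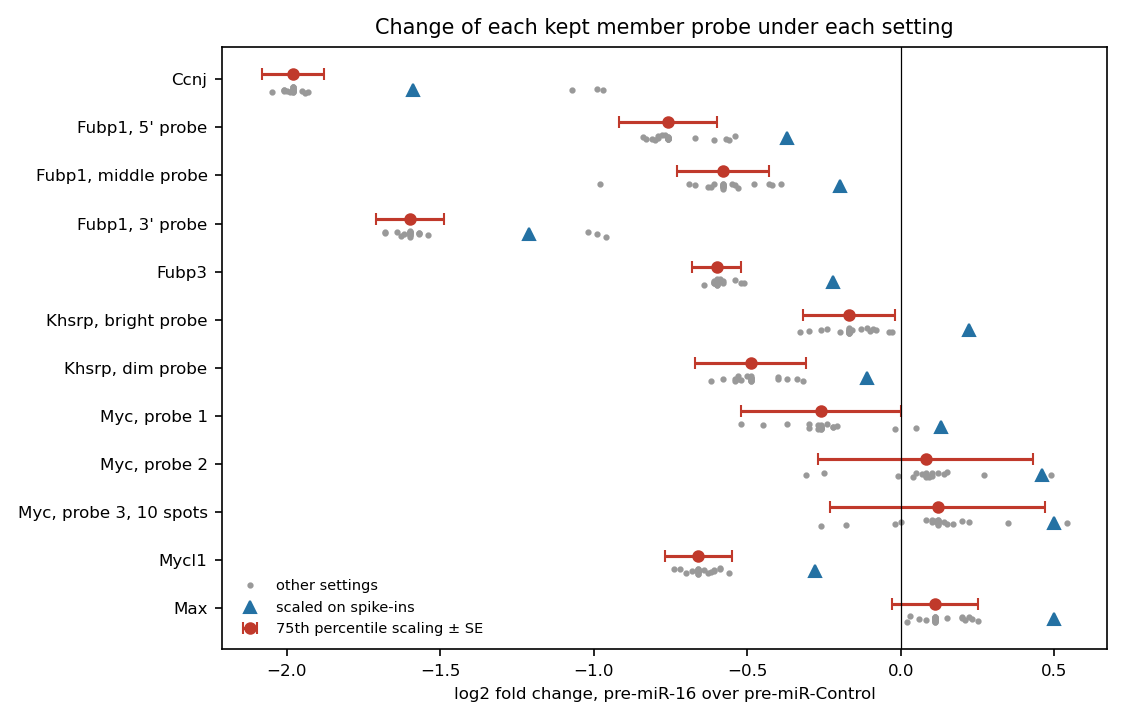
Change (log2, pre-miR-16 over pre-miR-Control) of each of the 12 kept member probes with its SE (red), under scaling on spike-ins (blue triangles) and under the other alternatives (grey dots). Ccnj and the 3′ probe of Fubp1 stay at -0.96 or below under all of them. Scaling on spike-ins moves every probe up by the same amount, which leaves the other called members between -0.37 and -0.20. The Myc probes spread to both sides of 0.

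Several groups of genes around these members were read from lists of recalled genes. Counts are over genes, each at its brightest kept probe, for which 15.9% of 16183 rose and 32.2% fell with a median of -0.20. In the wider MYC-MAX-MXD network, of 12 measured genes 1 rose, 2 fell and 9 were not called, with a median of -0.14. Mxd1, a MAX partner that represses E-box genes, rose by 0.71 ± 0.15 (adjusted p = 0.0112), and Mxi1, a repressor of the same kind, fell by 0.41 ± 0.09 (adjusted p = 0.014). Without pre-miR-16 replicate 2, 6 of the 12 were called. Of 33 genes reported to respond to MYC, 8 rose, 3 fell and 22 were not called, with a median of -0.08. The 3 with the smallest p were Ccnd2, a D-type cyclin, at 3.65 ± 0.31 (adjusted p = 0.000353), Mthfd2, an enzyme of mitochondrial folate metabolism, at 1.35 ± 0.13 (adjusted p = 0.000572), and Slc7a5, an amino acid transporter, at 1.82 ± 0.18 (adjusted p = 0.000667). The count of 11 called genes was between 4 and 12 when 1 array was left out, and at most 6 without any one array other than pre-miR-16 replicate 2.

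Among 13 genes for partners of FUBP1, which include its inhibitor PUF60 and the general transcription factor TFIIH, 0 rose, 5 fell and 8 were not called, with a median of -0.28. The TFIIH subunit genes Gtf2h2, Gtf2h3 and Ercc2 fell by 0.71 ± 0.09 (adjusted p = 0.00148), 0.54 ± 0.10 (adjusted p = 0.00545) and 0.41 ± 0.13 (adjusted p = 0.0368). Puf60 was at 3.44, 3.46 and 3.43 in the controls and at 3.46, 3.4 and 3.5 with pre-miR-16, a change of 0.01 ± 0.08. Leaving out 1 array gave 2 to 4 called genes on this list, and scaling on spike-ins 0. Of 8 measured genes reported to respond to FUBP1, 4 rose, 1 fell and 3 were not called, with a median of 0.54. The direction in which each was reported to respond was not used. Pmaip1, a BH3-only death gene, rose by 4.96 ± 0.26 (adjusted p = 4.42e-05), and Cdkn1a, the gene of the cell cycle inhibitor p21, rose by 2.24 ± 0.18 (adjusted p = 0.000247). Ccnd2, shared with the MYC list, was the third by p, Cdkn2b, the gene of the inhibitor p15, rose by 1.02 ± 0.15 (adjusted p = 0.00294), and Bik, another BH3-only gene, fell by 1.03 ± 0.11 (adjusted p = 0.000804). This list kept at least 5 calls under every alternative, and its median was 0.93 under scaling on spike-ins.

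Of 27 measured genes for other KH-domain RNA-binding proteins, 5 rose, 12 fell and 10 were not called, with a median of -0.34. The 17 calls became 11 without pre-miR-Control replicate 2 and 10 without pre-miR-16 replicate 1. Bicc1 rose by 3.80 ± 0.16 (adjusted p = 1.97e-05) and Khdrbs3 by 2.88 ± 0.14 (adjusted p = 3.44e-05), and Igf2bp1, which was not well above background in the 3 controls, was at least 2.68-fold higher. Among 21 genes for proteins that bind AU-rich elements or take part in message decay, the role that KHSRP is known for, 1 rose, 8 fell and 12 were not called, with a median of -0.26. Dcp2, the decapping enzyme, fell by 0.82 ± 0.10 (adjusted p = 0.00167), Zfp36l1, an AU-rich element binder, by 1.54 ± 0.21 (adjusted p = 0.00228), and Elavl1, which stabilises such messages, by 0.63 ± 0.10 (adjusted p = 0.00336). Among 22 measured cyclins 4 rose, 5 fell and 13 were not called, with a median of 0.02. Ccnj had the smallest p among them, followed by Ccnd2 and by Ccng1, a p53-responsive cyclin, which rose by 0.83 ± 0.10 (adjusted p = 0.00116). Left-out arrays moved the number of called cyclins between 4 and 13, with 4 without pre-miR-Control replicate 3 and 4 without pre-miR-16 replicate 1. Under scaling on spike-ins the medians of these lists shifted upward, to 0.24 for the MYC-MAX-MXD network, 0.30 for the MYC-responsive genes, 0.10 for the FUBP1 partners, 0.04 for the KH-domain genes, 0.12 for the decay genes and 0.40 for the cyclins. The numbers called were then 1, 9, 0, 8, 3 and 8 in that order, of which 0 of 9 MYC-responsive, 1 of 8 KH-domain, 1 of 3 decay and 1 of 8 cyclin genes fell.

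**Figure D5:**
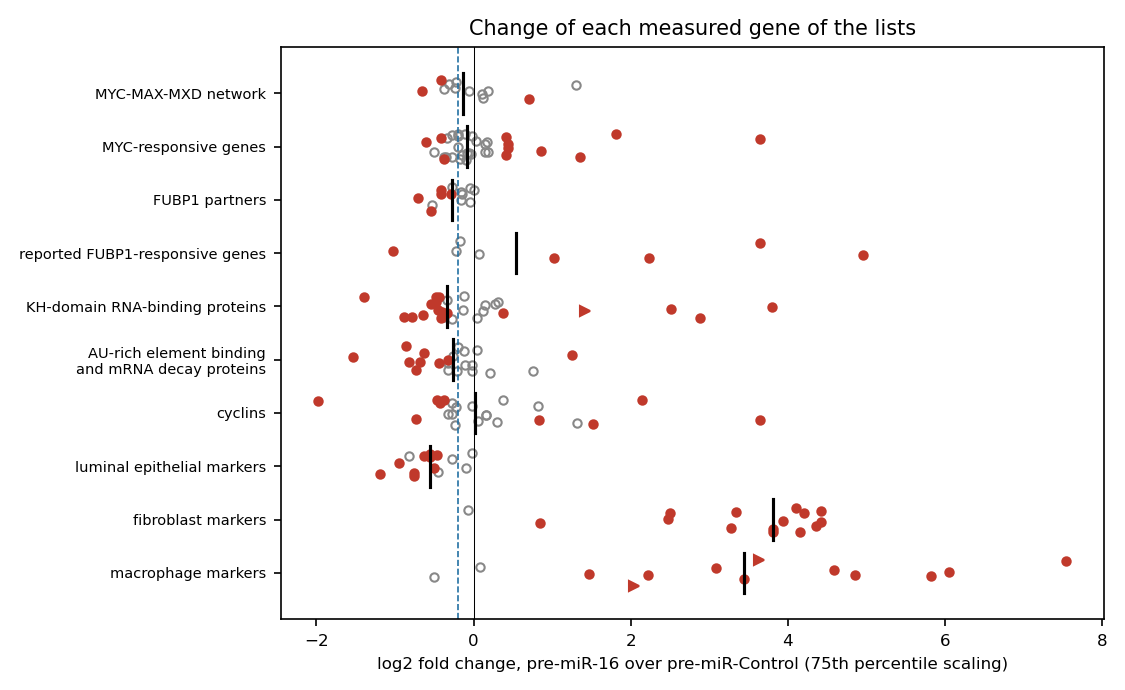
Change (log2, pre-miR-16 over pre-miR-Control, 75th percentile scaling) of every measured gene of the 7 lists around the members and of the 3 cell type marker lists, filled red where called and as a triangle where only a lower bound could be given. Black bars are list medians, the dashed line is the median of all genes at -0.20, and the fibroblast and macrophage markers stand far to the right of the lists around Fubp1 and Myc.

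The promoters of the members, as windows of 300 bases around the start of each gene, were searched for the E-box bound by MYC and MAX dimers, CACGTG, which reads the same on both strands. RefSeq (GRCm38.p6) gave a promoter for 7 of the 8 genes, and the motif was present in 2 of them, Fubp3 and Max, compared with 7.15% of all 32851 promoters in the table. Fubp3 fell and Max was not called, and a match is a description of these letters only.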

How the data were processed

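Total RNA of 6 cultures, 3 per group, was labelled with Cy3 and hybridised to Agilent mouse arrays. The deposited scanner files hold 1 processed intensity per spot, corrected for background by Agilent Feature Extraction 9.5.3.1, per the file headers, with no normalization between arrays. The deposited series matrix holds log2 values made by steps not given in the sources used here. Its columns for replicates 1 and 2 of pre-miR-16 resemble the other replicate's scanner file (Spearman 0.965 and 0.97) more than their own (0.946 and 0.944), so it served only as an alternative. Which of the 2 sources has the numbers exchanged cannot be told. Replicate numbers here are those of the scanner files, so numbers 1 and 2 of pre-miR-16 are uncertain. Both arrays are in the same group, so group means do not depend on this.

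Control and outlier spots were left out, log2 of the processed signal was averaged per probe, and each array's 75th percentile over its spots was subtracted. Probes were kept where at least 0.5 of their spots passed the scanner's well-above-background test on each of the 3 arrays of a group. The groups were compared by a moderated linear model (lmFit, eBayes) in limma 3.58.1 (R 4.3.3, data.table version 1.17.8), adjusted over the 23828 kept probes. Differences between members within an array were tested by exact permutation. The code was tested on simulated data.

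Names came from the files, updated through RefSeq. Named genes are every member, the 3 genes with the smallest p in each list, Krt8, Epcam, Col1a1, Pdgfrb, Adgre1, Ptprc, and the 3 genes most like Ccnj and Fubp1. Puf60, Cdkn2b, Bik, Krt7, Exosc8, Dcn, Csf1r and Aif1 were added after their values were seen. The members and lists were chosen with earlier results of these data known. The alternatives were other scalings, background correction, filters, thresholds, fits and blocks, and each array left out in turn; slide as a random block, a replicate block in matrix order, and the alternatives for the difference between Fubp1 probes were chosen after seeing the data. Slide 1 held replicate 1 of both groups, slide 2 held replicate 2 of both groups with the third control, and slide 3 held the third pre-miR-16 array.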

Additional observations from a re-analysis of the deposited data

How the results depend on the processing

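Over 24 alternatives the number of called member probes stayed within 1.5 times of 6 except under scaling on spike-ins, where Ccnj and the 3′ probe of Fubp1 made up the 2 calls, and it was 5 to 7 with 1 array left out. The alternatives with 1 row per gene, its brightest probe or the mean of its probes, each gave 4 calls. Those counts are over 7 genes rather than 12 probes, so they cannot be set directly against 6. Ccnj was called in every fit, at -2.05 to -1.93 with 1 array left out, and was -2.14 and -1.87 within slides 1 and 2. The middle Fubp1 probe lost its call under scaling on spike-ins (-0.20), without a filter on dim probes (-0.58, adjusted p = 0.0556), with slide as a fixed block (-0.54, adjusted p = 0.0885) and at a threshold of 0.01 (-0.58, adjusted p = 0.019). It ranged from -0.69 to -0.48 with 1 array left out and was -0.85 and -0.30 within slides 1 and 2. The 57 called genes of the lists became 32 under scaling on spike-ins, 35 without the filter, 36 with slide as a fixed block, 30 at the threshold of 0.01, 77 with array weights and 35 to 67 with 1 array left out. Fubp1 minus Fubp3 was -0.21 and 0.29 within slides 1 and 2, -0.38 over the mean of each gene's probes and -0.08 to 0.10 with 1 array left out. Fubp1 minus Khsrp was -0.07 within slide 2, -0.65 over the mean of probes and -0.57 to -0.29 with 1 array left out. Fubp1 minus Myc was 0.44 within slide 2 and -1.21 to -0.34 with 1 array left out. The Fubp1 3′ minus middle difference was -0.59 under normexp, -0.57 in the series matrix, -0.63 and -1.33 within slides 1 and 2, and -1.20 to -0.88 with 1 array left out. The causes of these shifts were not tested. Same-numbered replicates deviated together with correlations of -0.09, -0.04 and 0, which gave no sign that the numbers pair the arrays. With so few arrays per group these correlations cannot show whether a pairing is absent. With the replicate number as a block 6 member probes were called, Ccnj had an adjusted p of 0.0011 and the middle Fubp1 probe 0.0361, and 38 list genes were called. Normexp background correction alone moved Ccnj from -1.98 to -1.07, so the size of its fall depends on how dim signals are corrected.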
